A study of Mus musculus with 36 samples.

Results

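The natriuretic peptide system was followed through 7 genes, chosen by symbol and matched to the gene identifiers of the count files: the peptide genes *Nppa*, *Nppb* and *Nppc*, the receptor genes *Npr1*, *Npr2* and *Npr3*, and the protease gene *Corin*. They are 7 of the 78239 genes listed in each file. RNA was sequenced from heart, kidney and liver of untreated wild type male C57BL/6NCrl mice killed when they were 8, 10 or 12 weeks old, with 4 libraries for each tissue and age and 36 in all. Every mouse was anaesthetised with ketamine and xylazine before it was killed by cervical dislocation, and all were fed chow. Mice of different ages were different animals. Each age group held fewer mice than libraries, so some mice gave more than 1 tissue. Which libraries share a mouse is not stated in the labels. The libraries held between 21031599 and 33637390 read pairs counted to genes. The genes were chosen by name as a system, with earlier results of these data known.

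*Nppa* encodes the precursor of atrial natriuretic peptide, *Nppb* that of B-type natriuretic peptide and *Nppc* that of C-type natriuretic peptide. Cardiac muscle releases the peptides of *Nppa* and *Nppb* when it is stretched, and Corin, a serine protease in the cell membrane, cuts the *Nppa* precursor into its active form. *Npr1* encodes the receptor for both cardiac peptides and *Npr2* that for C-type peptide. Both receptors make cyclic GMP, through which the peptides relax vessels and, in the kidney, promote salt and water loss. *Npr3* encodes the clearance receptor, which has no cyclase and removes the peptides from the circulation.

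*Nppb* and *Nppa* are neighbours on the same strand of chromosome 4, with 13428 bases between them. In GRCm39 *Nppb* (ENSMUSG00000029019) lies at chr4:148069859-148071662 and *Nppa* (ENSMUSG00000041616) at chr4:148085091-148086583. *Npr2* (ENSMUSG00000028469) is on the same chromosome at chr4:43631339-43651436, *Nppc* (ENSMUSG00000026241) at chr1:86594013-86598301, *Npr1* (ENSMUSG00000027931) at chr3:90356458-90373748, *Corin* (ENSMUSG00000005220) at chr5:72457290-72661924 and *Npr3* (ENSMUSG00000022206) at chr15:11839982-11907373. The promoter windows of these neighbours are shown because they are the cardiac peptide genes, with at most 2 counts over the kidney and over the liver libraries. Each runs from 250 bases before to 50 bases after the start of the gene's canonical transcript, which for *Nppb* lies downstream of the gene's own first base, at 148070245, read on the plus strand of GRCm39, at chr4:148084841-148085140 for *Nppa* and chr4:148069995-148070294 for *Nppb*, and capitals mark matches to the motifs searched.
Nppa: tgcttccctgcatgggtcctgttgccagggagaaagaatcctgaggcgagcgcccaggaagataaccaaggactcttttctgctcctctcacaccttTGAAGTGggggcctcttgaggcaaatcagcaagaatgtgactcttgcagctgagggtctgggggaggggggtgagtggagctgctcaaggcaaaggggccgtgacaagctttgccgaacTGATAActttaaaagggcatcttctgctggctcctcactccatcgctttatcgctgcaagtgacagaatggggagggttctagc
Nppb: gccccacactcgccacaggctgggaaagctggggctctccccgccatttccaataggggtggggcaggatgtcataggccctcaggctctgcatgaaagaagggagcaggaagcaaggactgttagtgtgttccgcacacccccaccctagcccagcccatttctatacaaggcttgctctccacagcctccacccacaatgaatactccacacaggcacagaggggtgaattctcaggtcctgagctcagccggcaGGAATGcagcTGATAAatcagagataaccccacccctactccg
The motifs were TGATAA for GATA factors, TNAAGTG for NKX2-5, GGAATG for TEAD factors and TATAAA for the TATA box, each read on both strands. Both windows held TGATAA, which 8.52% of the 21770 protein-coding promoters of this length held. It lay 34 bases before that start in *Nppa* and at base 18 after it in *Nppb*. The *Nppa* window also held TNAAGTG, found in 11.5% of promoters, and the *Nppb* window GGAATG, found in 14.0%. Of the windows of the other 5 members, that of *Nppc* held TATAAA (found in 13.2% of promoters) and the others held none of the 4 motifs. No match overlapped another.

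In the libraries labelled heart, ventricular markers were high and several atrial markers were near 0. The summed level of 4 ventricular markers, *Myl2*, *Myl3*, *Irx4* and *Hey2*, ran from 9886 to 14287 CPM, the usual depth-scaled count, here with TMM library factors. Of 8 atrial markers, *Bmp10* had 1 count over the 12 heart libraries, *Sln* 16 and *Mybphl* 41. *Myl7*, the atrial myosin light chain, reached at most 1.03 CPM and *Myl4* at most 1.58 CPM. *Dkk3* and *Stard10* were no higher in heart than in kidney and liver at their medians, and *Kcnj3*, which ranged from 68.1 to 114 CPM, made up most of the list's sum of 76.2 to 125 CPM. These values come from the unstranded column of the files, as do all others for which no strand sum is named. A low value there need not mean little RNA, since pairs that overlap another gene are left out of it: *Tagln*, a smooth muscle marker, had 29 counts over the 12 heart libraries against 8532 in the sum of the strand columns. With that sum *Bmp10* still had 1, *Sln* 16, *Mybphl* 48 and *Myl7* 124 counts, *Myl4* had 458 (374 unstranded), *Stard10* 5725 (1880) and *Kcnj3* 31179 (25823). Which part of the heart was taken is not given in the sources used here. Hepatocyte markers, summed over 4 genes, reached 16.6 CPM in heart 10 weeks replicate 2, 22.7 in 10 weeks replicate 4 and 3.62 in 12 weeks replicate 4, against at most 0.631 in the other heart libraries. In bulk tissue, fewer cells of a type and less RNA per cell cannot be told apart.

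**Figure D1:**
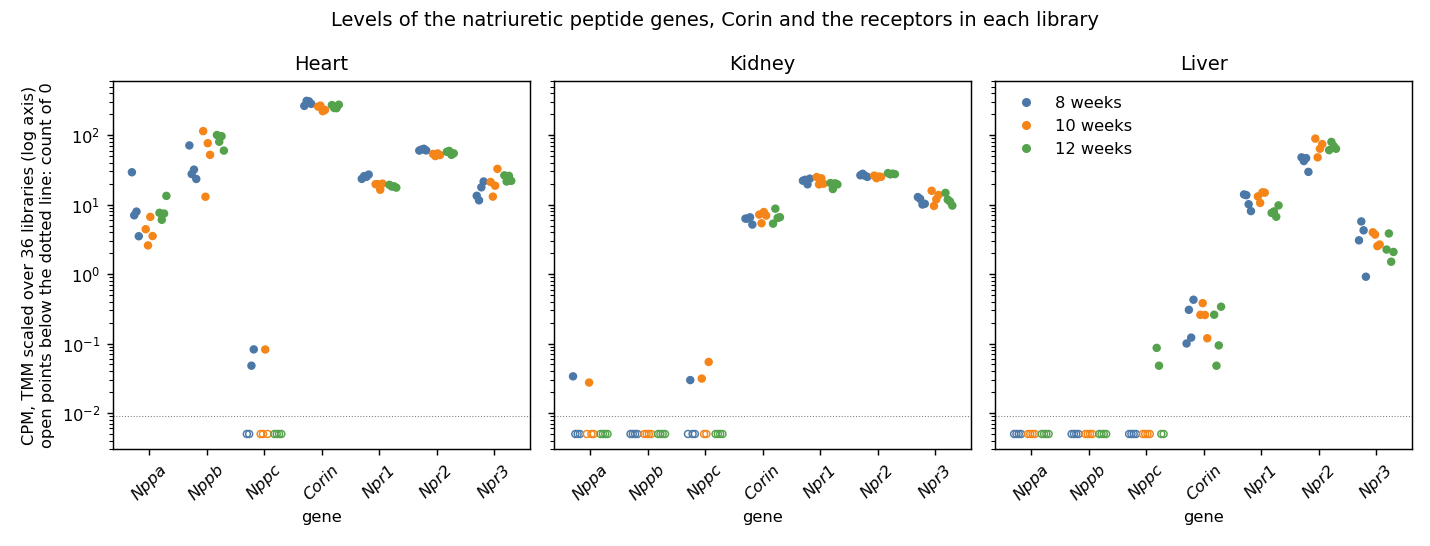
CPM on a log axis (vertical) of the 7 genes (horizontal) in each of the 12 heart, 12 kidney and 12 liver libraries, coloured by age. Open points under the dotted line are libraries with a count of 0. Nppa and Nppb had counts above 1 in heart libraries alone, Nppc lay near 0 in every tissue, and Npr1, Npr2 and Npr3 were present in all 36 libraries.

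*Nppb* was found in every heart library and in no other. Its heart level ran from 13.0 to 114 CPM, and it had 0 counts in all 12 kidney and all 12 liver libraries. Pooled over the libraries of each tissue and set against a floor of 3 counts over the group, *Nppb* was at least 9477-fold higher in heart than in kidney and at least 5293-fold higher in heart than in liver. *Nppa* had 2399 counts over the heart libraries, 2 over the kidney libraries and 0 over the liver libraries. The heart level was 1867 times that of kidney, with a 95% counting interval of 516 to 15429, and at least 695-fold higher than in liver. With the sum of the 2 strand columns, which counts more of the pairs over *Nppa*, it had 40873 pairs in heart, 47 in kidney, with at least 1 in each of the 12 libraries, and 6 in liver, in 6 libraries. The heart level was then 1354 times that of kidney (95% counting interval 1018 to 1843) and 5923 times that of liver (2721 to 16142), and reads of the antisense gene *Gm13054* cannot be told apart in these sums. *Nppc* had 5 counts over the heart, 4 over the kidney and 3 over the liver libraries, with at most 2 in any library, so no ratio is given. A count of 3 in 1 library corresponded to 0.0670 to 0.183 CPM, and the level of *Nppc* was not detectable above that in any library. Counting intervals and floors cover counting error only.

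*Corin* was also highest in the heart, and was lower in kidney and lower again in liver. It stood at 264 ± 27.3 CPM in heart (SD, n = 12), 6.56 ± 1.04 in kidney and 0.226 ± 0.126 in liver, and the 3 ranges did not overlap. The log2 difference was 5.33 ± 0.09 (SE) between heart and kidney (adjusted p = 3.78e-33, edgeR quasi-likelihood test with Benjamini-Hochberg adjustment, as for every adjusted p of the report unless another tool is named), 10.17 ± 0.13 between heart and liver (adjusted p = 1.77e-36) and 4.84 ± 0.15 between kidney and liver (adjusted p = 2.26e-25). In liver its counts ran from 1 to 10 a library, with a mean of 4.75, so that *Corin* entered both liver comparisons only through the other tissue.

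Each receptor was highest in a different set of organs. *Npr1* averaged 20.9 ± 3.53 CPM in heart and 21.1 ± 2.36 in kidney (SD, n = 12 each), and was lower in liver at 10.95 ± 3.05 CPM. The heart minus kidney difference of -0.03 ± 0.07 on the log2 scale (95% interval -0.17 to 0.11, adjusted p = 0.709) did not pass the test, and the liver lay 0.94 ± 0.08 below heart (adjusted p = 1.70e-13). The result for heart and kidney rests on the scaling: the TMM factors were 1.30 to 1.42 in kidney and 0.896 to 0.981 in heart, and without them *Npr1* averaged 28.7 CPM in kidney and 19.6 CPM in heart. The median log2 difference over all genes between heart and kidney was -0.15 after scaling.

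*Npr2* was high in heart and liver and lower in kidney. Its level was 56.6 ± 4.45 CPM in heart, 59.5 ± 17.2 in liver and 26.4 ± 1.36 in kidney (SD, n = 12 each). Kidney was 1.10 ± 0.07 below heart on the log2 scale (adjusted p = 3.34e-16) and liver was not distinguished from heart (-0.04 ± 0.07 for heart minus liver, 95% interval -0.18 to 0.10, adjusted p = 0.611). *Npr3* went from 20.5 ± 6.14 CPM in heart to 12.0 ± 2.02 in kidney and 3.04 ± 1.33 in liver. The log2 difference was 0.76 ± 0.15 between heart and kidney (adjusted p = 3.47e-05) and 1.98 ± 0.18 between kidney and liver (adjusted p = 2.14e-12). Without TMM factors *Npr3* averaged 19.3 CPM in heart against 16.3 in kidney and 2.41 in liver. Its kidney range of 12.5 to 22.4 CPM then lay within its heart range of 10.6 to 31.0. *Npr2* then averaged 53.2 CPM in heart, 46.8 in liver and 35.8 in kidney. Between these organs most genes passed, 86.1% between heart and kidney, 84.2% between heart and liver and 83.1% between kidney and liver, and a pass by 1 receptor is read against that background. *Nppa* and *Nppb* met the filter on low counts only through their heart libraries, so no count is taken over the members that met it.

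The order of the genes within the heart was read per kilobase of exon. *Corin* had 36.3 ± 3.74 CPM per kilobase (SD, n = 12) and *Nppb* 54.9 ± 29.3, and their ranges of 30.3 to 42.7 and 11.5 to 101 overlapped. *Npr2* followed with 5.35 ± 0.421, *Npr1* with 2.89 ± 0.488 and *Npr3* with 1.65 ± 0.494. *Npr2* and *Npr1* did not overlap, and *Npr1* and *Npr3* did. The place of *Nppa* in that order depended on how its reads were counted.

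*Nppa* was counted only in small part in the unstranded column of the files. An annotated RNA on the other strand, *Gm13054* (ENSMUSG00000086806, chr4:148085548-148088471), overlaps 60.4% of the exonic bases of *Nppa*. In its canonical transcript these are none of exon 1 (chr4:148085091-148085411), 89.9% of exon 2 (chr4:148085515-148085841) and 99.0% of exon 3 (chr4:148086232-148086536). A pair that could belong to both genes is dropped from the unstranded column, whereas each strand column gives it to the gene of its own strand. The kit did not mark strand, with 49.8 to 50.2% of pairs on either strand, so the sum of the 2 strand columns gives the pairs that lay in the exons of *Nppa*, whichever gene they came from. In the heart the unstranded column held 3.65 to 11.2% of that sum. The highest share was in 8 weeks replicate 1 (685 of 6130 pairs) and the next, 8.95%, in 12 weeks replicate 4 (336 of 3754).

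**Figure D2:**
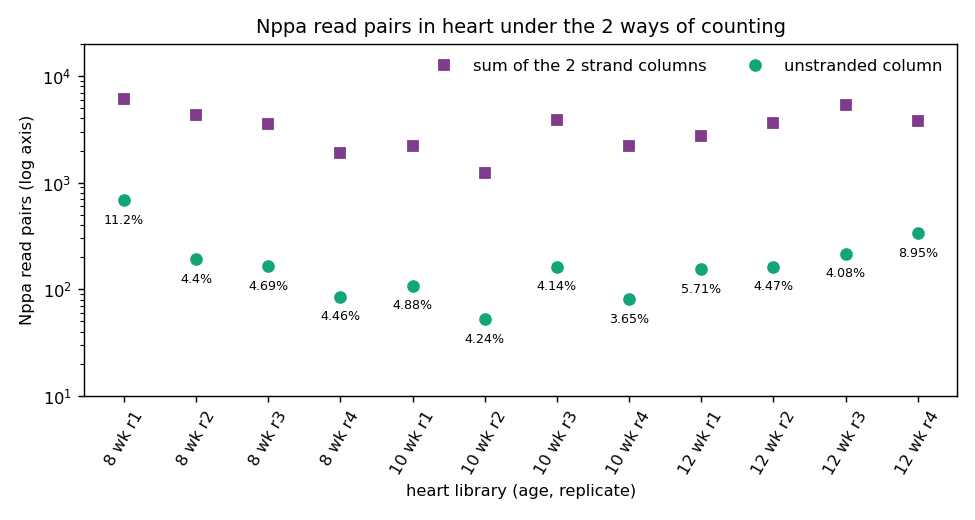
Read pairs (vertical, log axis) of Nppa in the 12 heart libraries, by age in weeks and replicate (horizontal), as the sum of the 2 strand columns (squares) and in the unstranded column (circles), with the unstranded count as a percent of the sum. The sum lay between 1225 and 6130 and the unstranded count between 52 and 685.

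As many pairs were missing from *Gm13054* as from *Nppa*. In each of the 12 heart libraries the difference between strand sum and unstranded count was the same for both genes to within 0.0475%, for example 4147 for each in 8 weeks replicate 2. *Gm13054* kept between 0 and 4 counts in the unstranded column. Reads of the overlapping genes cannot be told apart in these libraries. With strand sums, per the same depth, *Nppa* had 137 ± 53.5 CPM per kilobase in heart (SD, n = 12), with a range of 59.8 to 257, above the range of *Corin* on the same sums (35.1 to 49.2). With the unstranded column it had 8.12 ± 7.05, with a range of 2.54 to 28.7 that lay below that of *Corin* and overlapped those of *Nppb*, *Npr2*, *Npr1* and *Npr3*. The other members lost less in heart: the unstranded column held 100% of the strand sum for *Nppb*, at least 97.8% for *Npr3*, 85.7 to 91.2% for *Corin*, 82.0 to 88.1% for *Npr2* and 68.1 to 77.2% for *Npr1*, which overlaps the antisense gene *Gm16048* over 7.99% of its exonic bases.

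With age, *Npr1* was the only member to pass a comparison in the heart by edgeR. At 8 weeks its libraries had 23.5, 25.7, 25.0 and 27.1 CPM, at 10 weeks 19.7, 19.7, 16.4 and 20.02, and at 12 weeks 19.3, 18.2, 18.3 and 17.6. Every 8-week library lay above every older one, while 10 and 12 weeks overlapped. *Npr1* fell by 0.47 ± 0.08 on the log2 scale from 8 to 12 weeks (SE, adjusted p = 0.00787), a decrease of 27.9%, and fell by 0.42 ± 0.08 from 8 to 10 weeks (adjusted p = 0.0263). Between 10 and 12 weeks its log2 change was -0.05 ± 0.09 (adjusted p = 0.856).

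The drop of *Npr1* to 12 weeks passed the test with each of the 12 heart libraries left out in turn (adjusted p 0.00609 to 0.034), while that to 10 weeks did not pass without 8 weeks replicate 2, 3 or 4 or without 10 weeks replicate 1, 3 or 4 (adjusted p 0.0518 to 0.0891). *Npr1* is known from endothelial and muscle cells. The summed level of 5 endothelial markers was 576 to 684 CPM at 8 weeks and 620 to 671 CPM at 12 weeks. Of these 5 markers 3 were higher and 2 lower in that comparison. Only 1 passed, *Tie1*, which fell by 0.26 ± 0.07 on the log2 scale (adjusted p = 0.0362), where 2.21% of all genes fell and passed. There 2 of 6 cardiomyocyte and 1 of 4 ventricular markers rose and passed, where 2.36% of all genes did. Lower values were seen in 3 of the 6 and in 3 of the 4, and none of these passed. All 3 smooth muscle markers tested were lower, and 0 passed. The sum of 5 fibroblast markers was 610 to 633 CPM at 8 weeks, 703 to 870.5 at 10 weeks and 639 to 733 at 12 weeks, so that the 8-week hearts lay below all older ones. Of these markers *Pdgfra* rose, by 0.53 ± 0.08 to 10 weeks (adjusted p = 0.00263) and by 0.45 ± 0.08 to 12 weeks (adjusted p = 0.00548), and the other 4 did not pass. The part of these cells in the *Npr1* values was not tested. Of the 6 members tested in the heart, 1 passed between 12 and 8 weeks, where 4.56% of all genes did, 1 passed between 10 and 8 weeks (1.06% of all genes) and 0 between 12 and 10 weeks (0.0396%). At an unadjusted p under 0.05 the counts were 5, 4 and 0 of 6. Of the 15137 genes tested in the heart, 3544, 2386 and 1776 were under it in the same comparisons.

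*Nppb* had the largest positive log2 change of the members in the heart from 8 to 12 weeks, and did not pass the test. Its 8-week libraries had 71.0, 27.5, 31.9 and 23.4 CPM, the 10-week libraries 114, 13.0, 76.5 and 52.0, and the 12-week libraries 100.3, 80.2, 96.5 and 59.9. Replicate 1 at 8 weeks reached into the 12-week range, and the 10-week libraries spanned both ages. The log2 change from 8 to 12 weeks was 1.13 ± 0.43 (95% interval 0.28 to 1.97, adjusted p = 0.126) and that from 8 to 10 weeks 0.74 ± 0.43 (adjusted p = 0.425). The call from 8 to 12 weeks turned on single libraries: without 8 weeks replicate 1 the change was 1.61 (adjusted p = 0.039) and without 10 weeks replicate 2 it was 1.12 (adjusted p = 0.0352). With only the 8 libraries of the 2 ages in the fit the adjusted p was 0.0379.

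*Nppa* scattered widely within each age, and no comparison of ages passed. Its unstranded level was 29.2, 7.01, 7.93 and 3.51 CPM at 8 weeks, 4.42, 2.59, 6.66 and 3.53 at 10 weeks and 7.62, 6.05, 7.44 and 13.3 at 12 weeks. The strand sums were 261, 159, 169 and 78.6 CPM, then 90.6, 60.9, 161 and 96.5, then 133, 135, 182 and 149. On both measures 8 weeks replicate 1 was the highest of the 12 and 10 weeks replicate 2 the lowest, and all 3 ages overlapped. The log2 change of the unstranded count was -1.46 ± 0.48 from 8 to 10 weeks (adjusted p = 0.152) and -0.47 ± 0.45 from 8 to 12 weeks (adjusted p = 0.558), and with strand sums it was -0.72 (adjusted p = 0.244) and -0.17 (adjusted p = 0.767). Without 8 weeks replicate 1 the change from 8 to 12 weeks turned to 0.48 (adjusted p = 0.345). That library was also the highest of the 8-week hearts in *Nppb*, and over the 12 heart libraries the log2 CPM of *Nppa* and *Nppb* had a Pearson's r of 0.42 (0.49 with strand sums), a description over libraries that share their depth scaling.

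**Figure D3:**
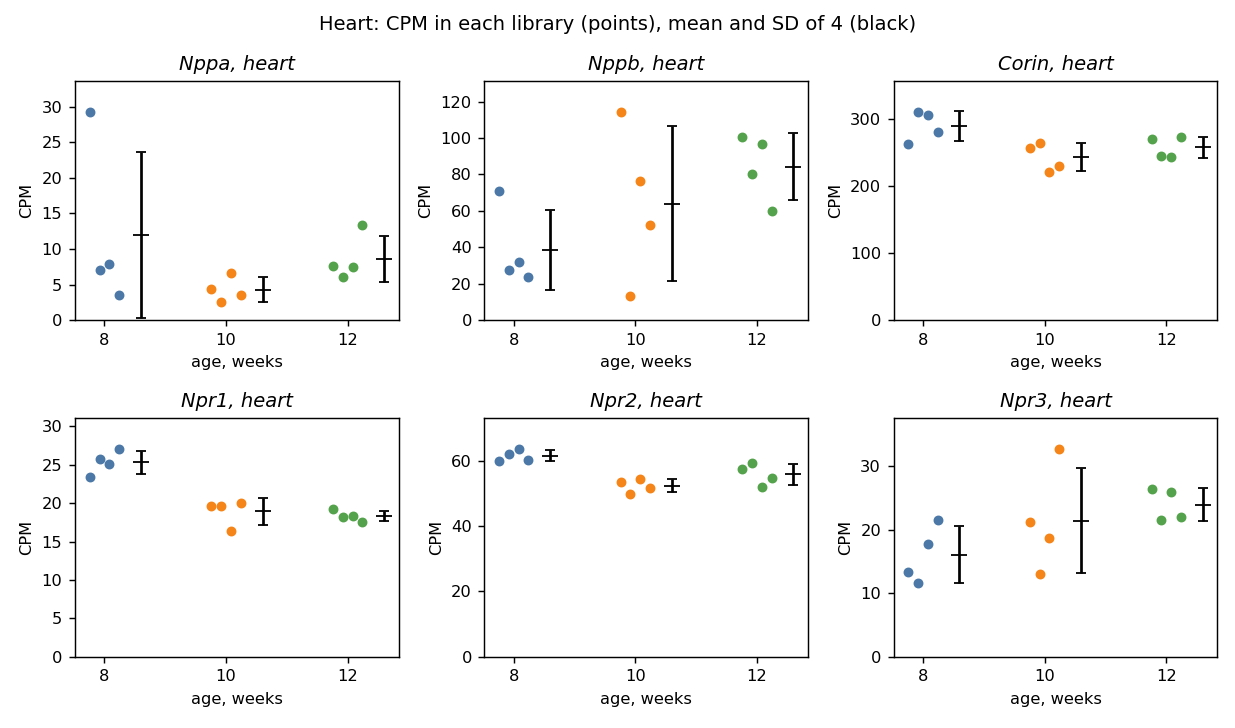
CPM (vertical, from 0) in each heart library at 8, 10 and 12 weeks (horizontal) for 6 genes, with the mean and SD of the 4 libraries in black. The Npr1 libraries at 8 weeks (23.5 to 27.1) lay above all older ones (16.4 to 20.02), whereas Nppb and Nppa scattered widely within an age.

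The clearance receptor *Npr3* had 13.4, 11.5, 17.7 and 21.5 CPM at 8 weeks, 21.2, 13.0, 18.7 and 32.7 at 10 weeks and 26.3, 21.5, 25.9 and 22.0 at 12 weeks. Every 12-week library lay above every 8-week library, though the nearest of each age both round to 21.5 CPM. Its change from 8 to 12 weeks was 0.57 ± 0.22 on the log2 scale (95% interval 0.15 to 1.00, adjusted p = 0.124). Mesothelial and epicardial markers, 4 genes, summed to 7.30 to 8.60 CPM in the 8-week hearts, 10.3 to 46.6 at 10 weeks and 6.49 to 21.1 at 12 weeks, and 10 weeks replicate 4 had both the highest sum and the highest *Npr3*. The part of these cells in the *Npr3* values was not tested.

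*Npr2* and *Corin* had small differences between ages in the heart, and neither passed by edgeR. *Npr2* ranged from 59.96 to 63.6 CPM at 8 weeks, 49.9 to 54.5 at 10 weeks and 52.0 to 59.2 at 12 weeks, so that its 8-week libraries lay above all others. The log2 change was -0.23 ± 0.07 to 10 weeks (95% interval -0.36 to -0.10, adjusted p = 0.111, 0.0494 by DESeq2) and -0.14 ± 0.07 to 12 weeks (adjusted p = 0.209). *Corin* ranged from 263 to 311 CPM, 221 to 266 and 244 to 274 at the 3 ages, with overlap throughout. Its log2 change was -0.25 ± 0.08 to 10 weeks (adjusted p = 0.139) and -0.17 ± 0.08 to 12 weeks (adjusted p = 0.209).

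**Figure D4:**
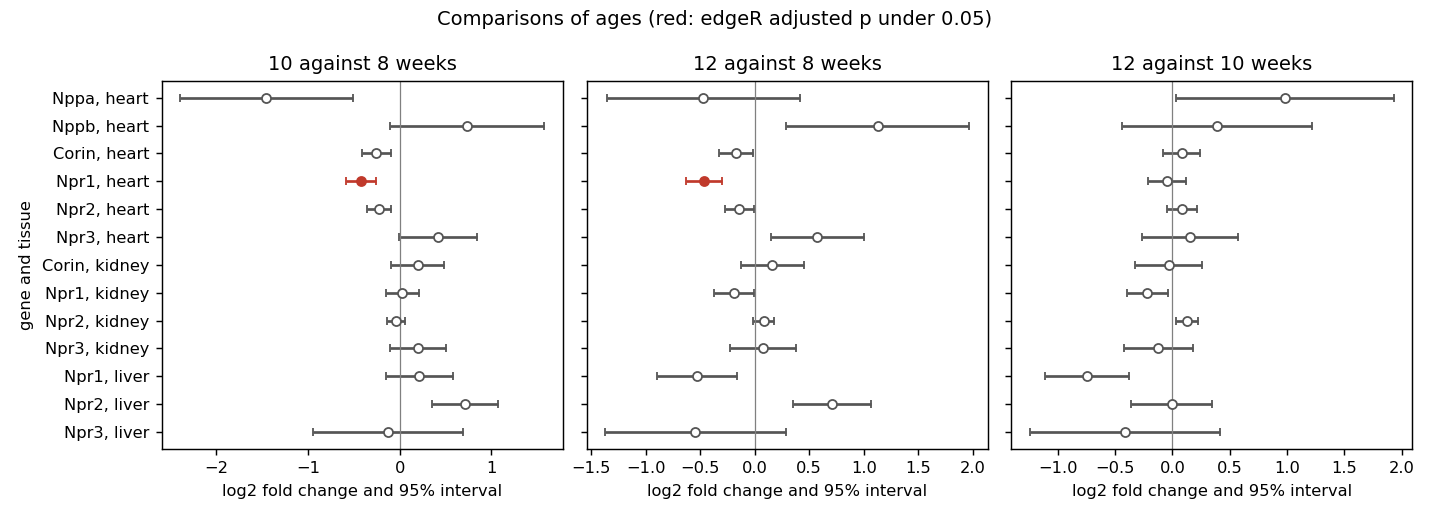
Log2 fold changes (horizontal) with their 95% intervals for each gene and tissue (vertical) in the 3 comparisons of ages. The red points, Npr1 in heart at 10 against 8 weeks (-0.42) and at 12 against 8 weeks (-0.47), passed the test, and all other points did not.

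In the kidney no member passed a comparison of ages. Of the 4 tested (*Npr1*, *Npr2*, *Npr3* and *Corin*), 0 passed between 12 and 8 weeks (0.0567% of all genes passed), between 10 and 8 weeks (0.929%) and between 12 and 10 weeks (0.482%), and at an unadjusted p under 0.05 the counts were 0, 0 and 2. limma-voom and DESeq2 also gave 0 passes in each. Of the 17649 genes tested in the kidney, 2059, 2917 and 2894 had an unadjusted p under 0.05 by edgeR in these comparisons. *Npr2* had 26.3 ± 1.11 CPM at 8 weeks, 25.1 ± 0.875 at 10 weeks and 27.7 ± 0.507 at 12 weeks (SD, n = 4). Its log2 change from 8 to 12 weeks was 0.08 ± 0.05 (95% interval -0.01 to 0.18). The 2 changes at an unadjusted p under 0.05 were from 10 to 12 weeks. They were 0.12 ± 0.05 for *Npr2* (adjusted p = 0.217) and -0.22 ± 0.09 for *Npr1* (adjusted p = 0.261). *Npr1* had 22.0 ± 1.74, 22.1 ± 2.72 and 19.2 ± 1.69 CPM at the 3 ages, with a log2 change of -0.19 ± 0.09 from 8 to 12 weeks (adjusted p = 0.457). The difference between heart and kidney in that change was -0.27 ± 0.18 (adjusted p = 0.607), so the drop of *Npr1* in heart was not shown to differ from its change in kidney. That test took 1 estimate of spread for a gene over all tissues. Its SE of 0.18 stands beside SEs of 0.08 in the heart fit and 0.09 in the kidney fit. *Npr3* lay between 9.57 and 15.8 CPM and *Corin* between 5.16 and 8.74 CPM in the kidney, with overlap among all ages.

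In the liver the mean of *Npr2* was 41.6 ± 8.35 CPM at 8 weeks, 68.7 ± 17.3 at 10 weeks and 68.4 ± 8.39 at 12 weeks (SD, n = 4), and no comparison of ages passed by edgeR. Its levels were 47.8, 42.3, 46.6 and 29.6 CPM at 8 weeks, 89.0, 47.8, 63.6 and 74.2 at 10 weeks and 60.7, 79.7, 69.5 and 63.6 at 12 weeks. The 12-week libraries all lay above the 8-week libraries. The log2 change from 8 to 12 weeks was 0.71 ± 0.18 (95% interval 0.35 to 1.06), with an adjusted p of 0.119 by edgeR and 0.0162 by DESeq2, and that from 8 to 10 weeks was 0.71 ± 0.18 (0.145 and 0.0210). DESeq2 also called more of all genes in the liver, 423 against 35 from 8 to 12 weeks and 361 against 3 from 8 to 10 weeks. Without 10 weeks replicate 2, the lowest of its age, the change to 10 weeks was 0.85 (adjusted p = 0.0416).

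By the test of the difference between tissues, the change of *Npr2* with age differed between liver and heart. From 8 to 12 weeks the heart minus liver difference in log2 change was -0.85 ± 0.17 (adjusted p = 0.00454), and it passed under each of 41 alternatives (-0.93 to -0.72, adjusted p 3.52e-05 to 0.0118). Each of these fits took 1 estimate of spread for a gene over all tissues. The SD of *Npr2* over 12 libraries was 17.2 CPM in liver against 4.45 in heart. In the liver fit alone its change had an SE of 0.18, so the SE of the difference may be too low. *Npr2* was the 1 of 4 members to pass between heart and liver, where 4.16% of all genes passed. *Corin*, 1 of the 4, entered both comparisons with liver only through the other tissue. Its heart minus liver difference had an SE of 0.52, so it could hardly have passed. Between heart and kidney 0 of 4 passed (0.112% of all genes) and between kidney and liver 0 of 4 (0.304%). The counts at an unadjusted p under 0.05 were 0 and 1, where 2198 and 2201 of the 19716 genes tested were. By DESeq2 0 and 1 passed. The kidney minus liver difference for *Npr2* was -0.64 ± 0.17 (adjusted p = 0.0857), and it passed without liver 10 weeks replicate 2 (adjusted p = 0.025) or liver 12 weeks replicate 4 (adjusted p = 0.0483). The heart minus liver difference for *Npr3* was 1.14 ± 0.43 (adjusted p = 0.133), and without liver 8 weeks replicate 4 it was 1.43 (adjusted p = 0.0253).

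*Npr1* and *Npr3* had their lowest means in the liver at 12 weeks, also without passing by edgeR. *Npr1* had 14.0, 13.7, 10.1 and 8.06 CPM at 8 weeks, 13.1, 10.6, 15.01 and 14.9 at 10 weeks and 7.59, 7.97, 6.68 and 9.74 at 12 weeks, so that 12 weeks lay below 10 weeks without overlap. Its log2 change from 10 to 12 weeks was -0.74 ± 0.19 (adjusted p = 0.111 by edgeR, 0.0142 by DESeq2) and from 8 to 12 weeks -0.53 ± 0.19 (adjusted p = 0.227). The summed endothelial markers were at 87.7 to 145 CPM at 8 weeks, 144 to 157 at 10 weeks and 58.3 to 92.4 at 12 weeks, and their part in the *Npr1* values was not tested. *Npr3* had 3.06, 5.72, 4.27 and 0.916 CPM at 8 weeks, 3.99, 3.70, 2.53 and 2.66 at 10 weeks and 2.26, 3.84, 1.51 and 2.08 at 12 weeks, with overlap at all ages and a log2 change of -0.55 ± 0.42 from 8 to 12 weeks (adjusted p = 0.574).

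**Figure D5:**
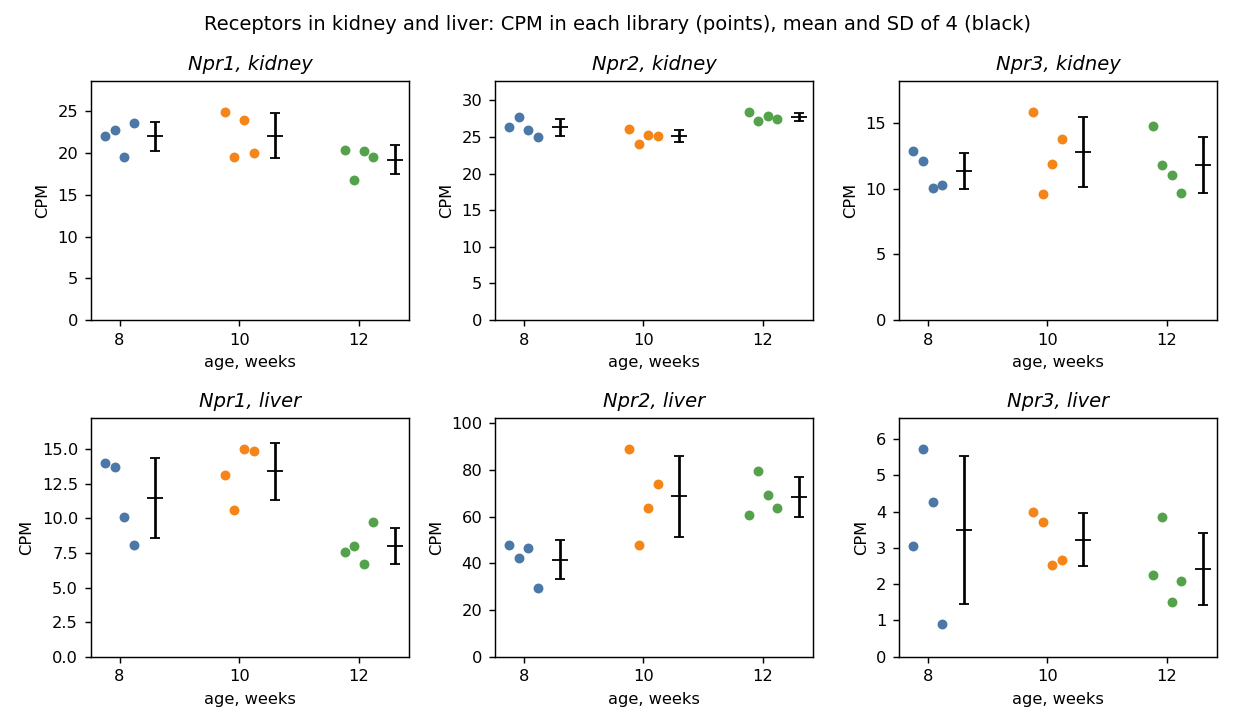
CPM (vertical, from 0) of Npr1, Npr2 and Npr3 in each kidney and liver library at 8, 10 and 12 weeks (horizontal), with the mean and SD of 4 libraries in black. Liver Npr2 was at 29.6 to 47.8 CPM at 8 weeks and 60.7 to 79.7 at 12 weeks, and kidney Npr2 did not exceed 28.4 CPM at any age.

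Liver 8 weeks replicate 4 had the lowest value of all 3 receptors among the 8-week livers. It also had the lowest sum of 4 hepatic stellate cell markers of that age, 49.0 CPM against 95.8 to 139 in the others, the lowest endothelial sum, 87.7 CPM, and the highest hepatocyte sum. The part of these cells in its receptor values was not tested. In the liver 0 of the 3 members tested passed between 12 and 8 weeks (0.239% of all genes), between 10 and 8 weeks (0.0204%) and between 12 and 10 weeks (0.0545%). At an unadjusted p under 0.05 the counts were 2, 1 and 1, where 2221, 2100 and 2073 of the 14672 genes tested in the liver were. By DESeq2 1, 1 and 1 members passed.

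The genes around the peptides and their receptors were read from 57 genes in 6 lists. In the heart 47 were tested. From 8 to 12 weeks 1 rose, where 2.36% of all genes did, and 4 fell, where 2.21% did. From 8 to 10 weeks 1 rose (0.76% of all genes) and 2 fell (0.304%), and from 10 to 12 weeks 0 passed in edgeR. In these 3 comparisons 21, 13 and 10 of the 47 had an unadjusted p under 0.05. So had 3544, 2386 and 1776 of the 15137 genes tested in the heart. Of the 10 transcription factors that act on the *Nppa* and *Nppb* locus, 3 fell from 8 to 12 weeks and none rose: *Hand2* (-1.41 ± 0.24, adjusted p = 0.00611), *Nkx2-5* (-0.45 ± 0.08, adjusted p = 0.00938) and *Gata6* (-0.37 ± 0.08, adjusted p = 0.022). *Hand2* and *Nkx2-5* passed under each of the 19 alternatives that kept the filter on low counts and *Gata6* under 13 of 19. The list's median log2 change was -0.21, against 0.00090 over all genes. *Hand2* averaged 81.1 ± 18.6 CPM at 8 weeks, 52.0 ± 23.6 at 10 weeks and 30.8 ± 7.85 at 12 weeks, and *Nkx2-5* 83.7 ± 1.31, 84.5 ± 8.998 and 61.7 ± 5.30 (SD, n = 4). *Tbx5*, a factor of the same list, fell by 0.63 ± 0.15 from 8 to 10 weeks (adjusted p = 0.047) and passed under 9 of 19 alternatives.

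Of 12 genes of cardiac load and the fetal programme, *Myh7*, the slow myosin heavy chain, fell and the other 11 did not pass. *Myh7* was at 172 ± 31.3 CPM at 8 weeks, 63.0 ± 13.3 at 10 weeks and 105 ± 26.3 at 12 weeks (SD, n = 4), a fall of 1.45 ± 0.18 to 10 weeks (adjusted p = 0.00132) and of 0.72 ± 0.17 to 12 weeks (adjusted p = 0.031) on the log2 scale, which passed under 19 and 15 of 19 alternatives. Of 6 tested genes of ligands and peptide handling, *Ide*, a protease that degrades insulin and natriuretic peptides, rose by 0.31 ± 0.09 to 12 weeks (adjusted p = 0.0471) and *Dpp4*, a dipeptidyl peptidase, by 1.49 ± 0.34 to 10 weeks (adjusted p = 0.0435). They passed under 8 and 7 of 19 alternatives. *Dpp4* was at 1.87 ± 0.603, 5.23 ± 2.73 and 3.18 ± 0.983 CPM at the 3 ages. Of the 4 mesothelial and epicardial markers, *Msln* (2.99), *Upk3b* (3.61) and *Upk1b* (3.58 on the log2 scale) also rose to 10 weeks. *Wt1*, the other one, was lower and did not pass. The part of mesothelial cells in the rise of *Dpp4* was not tested. None of the 4 other cyclic GMP synthesis genes, 8 effectors and 7 phosphodiesterases tested in the heart passed. In the kidney 0 of 40 genes and in the liver 0 of 34 passed any comparison of ages in edgeR. At an unadjusted p under 0.05 there were 3 to 6 and 6 to 10. Over all genes tested there were 2059 to 2917 of 17649 in kidney and 2073 to 2221 of 14672 in liver. Under the alternatives that kept the filter on low counts, 0 passed in kidney and at most 4 in liver.

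The genes whose level followed each member most closely were found over 12 libraries of a tissue, by Pearson's r of log2 CPM among genes of at least 1 CPM. Across 12758 candidates in the heart they were *Prune1*, *Fuca2* and *Loxl2* for *Nppb* (r = 0.96, 0.95 and 0.94), *Nf2*, *Med11* and *Incenp* for *Nppa* (0.90, 0.87 and 0.86), and *Elf2*, *Gabrr2* and *Trim62* for *Corin* (0.94, 0.93 and 0.92). For the receptors they were *Wtip*, *Ypel3* and *Gmeb2* with *Npr1* (0.94, 0.94 and 0.93), *Nr3c2*, *AI838599* and *Myh7* with *Npr2* (0.91, 0.89 and 0.89), and *2810402E24Rik*, *Vit* and *Ippk* with *Npr3* (0.92, 0.91 and 0.86). With strand sums the genes for *Nppa* were *Lipt1*, *Top2a* and *Uimc1* (0.93, 0.84 and 0.83), none of those named from the unstranded column. In the kidney the closest genes were *Dlg4* for *Npr1* (0.92), *Meis2* for *Npr2* (0.86), *Chrna4* for *Npr3* (0.90) and *Stmp1* for *Corin* (0.89). In the liver they were *Tek*, the endothelial receptor for angiopoietins, for *Npr1* (0.96), *Dio1*, a thyroid hormone deiodinase, for *Npr2* (0.97), and *Ednrb*, an endothelin receptor, for *Npr3* (0.90). The libraries share their age groups and depth scaling, and the closest of so many candidates is high by selection.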

How the data were processed

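Total polyA RNA of heart, kidney and liver was sequenced in 36 libraries. Per the paper's methods and the submitters' processing notes, the authors checked reads with FastQC 0.11.9, trimmed them with cutadapt 4.2 and aligned and counted them with STAR 2.7.11b on GRCm39 with Ensembl release 113. The deposited values are raw read pair counts per gene, unstranded and for each strand. The unstranded counts were used here, and the sum of the strand columns beside them. Levels are CPM with TMM factors over all 36 libraries. Symbols, coordinates and exon lengths came from GENCODE vM39 (GRCm39). After the study's filter (in 1 age group or more, 2 libraries above 0 and a mean count of 10), each tissue was fitted with a mean for each age, and all libraries with a mean for each of the 9 groups, in edgeR 4.0.16 (quasi-likelihood test, TMM, R 4.3.3), adjusted over all genes kept, with a call at an adjusted p of 0.05. SE is the log2 fold change over the square root of F, and intervals are 1.96 SE. The code was tested on simulated data. limma 3.58.1 (voom), DESeq2 1.42.0, other factors, filters and left-out libraries were alternatives. Members, lists and named-gene rules (every member, pathway genes past the adjusted p and the closest genes by correlation) were chosen with earlier results of these data known. Nothing in the labels says whether libraries of a group differ in batch. Protein sequences were not used here.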

Additional observations from a re-analysis of the deposited data

Results flagged for a closer look

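Over the 43 member and group combinations examined for a library apart from its group, 1 was found, and chance alone marks about 1 in 20 such groups. *Npr1* in heart 10 weeks replicate 3 was low, at 16.4 CPM against 19.7 to 20.02 in the other 3 libraries of that age. Without it the fall of *Npr1* from 8 to 10 weeks was 0.36 on the log2 scale (adjusted p = 0.0814). The change of *Npr2* from 8 to 12 weeks differed between heart and liver by the test of that difference, with a log2 value of -0.85 ± 0.17 (edgeR adjusted p = 0.00454). That test took 1 estimate of spread for a gene over all tissues.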

How the results depend on the processing

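The calls of members kept their side of the threshold in kidney and between the 3 tissues under every alternative run. Between 12 and 8 weeks in heart, 1 member passed, 4 did with no count filter, 2 with only the 2 ages and 1 to 2 with a library left out. Between 10 and 8 weeks, 1 passed, 2 did with DESeq2, 4 with no count filter and 0 to 1 with a library left out, and between 12 and 10 weeks 0 passed and 2 with no count filter. In liver 0 passed, against 1 with DESeq2 and 1 with no count filter in each comparison, and 0 to 1 between 10 and 8 weeks with a library left out. For the difference in change from 8 to 12 weeks, heart against liver gave 1, 2 with no count filter and 1 to 2 with a library left out, and kidney against liver 0, 1 with DESeq2, 1 with no count filter and 0 to 1 with a library left out. No called change reversed. The causes were not tested.

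The replicate numbers of the labels were not taken as pairs. Between tissues of one age, 24 of 36 same-numbered pairs of libraries had a correlation of deviations over 0.1 (-0.17 to 0.34), and between ages of one tissue 10 of 36 had (-0.39 to 0.33). Kidney and liver came closest to pairing, with 11 of 12 pairs over 0.1 (lowest 0.064). There each of 12 correlated best with its own number. The same tallies were 8 and 8 of 12 for heart and kidney and 5 and 6 of 12 for heart and liver. Each age group held fewer mice than libraries, so some mice gave more than 1 tissue. The labels do not say whether the numbers mark those mice. The tests between tissues treat the 36 libraries as independent. With age and number together as the block, *Npr2* in kidney minus liver had a log2 difference of -1.12 (adjusted p = 5.09e-15) and no member changed its call between tissues or in a difference in change. Within a tissue, with the number as a replicate block, 3 members passed between 12 and 8 weeks in heart, *Npr1*, *Nppb* (adjusted p = 0.0325) and *Npr3* (adjusted p = 0.0429), and no other count of members changed. Spearman's rho kept 1 of the 3 heart genes named as closest to *Nppa*, 2 for *Nppb*, 1 for *Npr2*, 2 for *Corin* and 0 for *Npr1* and *Npr3*. Of the 57 pathway genes, 5 passed between 12 and 8 weeks in heart (2 to 12 over all alternatives), 3 between 10 and 8 weeks (1 to 6) and 0 between 12 and 10 weeks (0 to 5). Over all genes DESeq2 called 1270 against 691, 366 against 161 and 71 against 6 for edgeR in those comparisons.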
